A study of Homo sapiens with 8 samples.

Results

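The protein-coding genes of the cytosolic ribosome were followed in SK-N-SH, a human neuroblastoma cell line, when ZMYND8 was overexpressed or knocked down. Members were the 81 genes, of 60659 in the count table, whose symbol is RPL or RPS with a number and at most 1 closing letter A, X or L, together with RPLP0, RPLP1, RPLP2 and RPSA. They held 31 small subunit genes, 46 large subunit genes and 4 copies whose symbol ends in L (RPL3L, RPL10L, RPL39L and RPS27L).

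Each ribosome pairs a small subunit, which decodes the mRNA, with a large subunit, which joins the amino acids, and each subunit is built from ribosomal RNA and its own set of proteins. Their mRNAs are among the most abundant of a dividing cell and begin with a run of pyrimidines, the terminal oligopyrimidine (TOP) tract, through which mTOR signalling sets how much of each is translated. Several of the genes carry small nucleolar RNAs in their introns, and processed pseudogenes copied from their mRNAs are scattered over the genome.

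All 8 libraries came from cells kept in differentiation medium with 10 µM all-trans retinoic acid (ATRA) for 24 hours, and there were 2 libraries, called biological replicates by the study, in each of 4 groups. The Parental group was SK-N-SH given doxycycline (Dox), and the ZMYND8 overexpression group carried FLAG ZMYND8 and was given Dox too. According to the study's methods ZMYND8 was delivered by lentivirus in an inducible vector and stable cells were selected, so vector and selection went with overexpression. The KD control and ZMYND8 knockdown groups had no Dox in their labels, and the methods describe lentiviral shRNA for knockdown. Those methods give its puromycin selection for SH-SY5Y and neural stem cells. For SK-N-SH the paper describes loss of ZMYND8 as a knockout, so how these knockdown cells were made is not stated there. No source used here says whether a line was 1 clone. Two-sided p-values below measure the spread between these libraries.

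RNA was total RNA depleted of ribosomal RNA and copied with random hexamers, so reads of unspliced RNA were kept. Summed counts per library lay between 38316523 and 56256979, and a count of 3, the limit that a count of 0 allows, stood for 0.0533 to 0.0783 CPM (counts scaled to a common library total; the limit covers counting error only). ZMYND8 had 3089 and 3612 counts in Parental, 220691 and 182849 in overexpression, 3128 and 3374 in KD control and 1641 and 1640 in knockdown. Genes on the mitochondrial chromosome took 0.110% to 0.168% of counts in Parental and overexpression and 2.92% to 3.41% in KD control and knockdown, which goes with the experiment and not with the ZMYND8 groups within it. Of 8 adrenergic neuroblastoma markers, 7 passed the test of overexpression, all higher, and TH, which marks noradrenaline synthesis, had 0 to 5 counts in every library. The summed level of these markers was 308 to 310 CPM in Parental, 1161 to 1250.3 in overexpression, 858 to 929 in KD control and 691 to 793 in knockdown. All 6 mesenchymal markers fell in overexpression, from a summed level of 8537 to 9054 CPM in Parental to 3561 to 3736. That level was 3859 to 3894 in KD control and 4603 to 4985 in knockdown. The markers were split there, with 3 of the 6 called higher in knockdown and 2 lower. PRRX1 had 6801 and 7151 counts in KD control and 3473 and 3363 in knockdown, while COL1A1 had 86855 and 86022 against 124426 and 114009. Leukocyte, endothelial, epithelial, liver and astrocyte markers (5 genes) summed to 1.16 to 2.98 CPM. The part of these shifts in the ribosomal protein values was not tested, and in bulk RNA fewer cells of a type and less RNA per cell cannot be told apart.

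The members are short genes, and most have an annotated transcript that retains an intron. Exons of all annotated isoforms covered a median of 56.1% of a member's span, against 16.1% for protein-coding genes. Their median span was 5548 bases against 27294 over 19919 protein-coding genes, and the median length of the Ensembl canonical transcript was 785 against 2891 bases. Exons of all annotated isoforms, over which reads were counted, summed to a median of 3188 bases, a median of 3.03 times the canonical transcript, against 1.28 times for protein-coding genes. Transcripts with a retained intron were annotated for 66 of 81 members (81.5%) and for 48.4% of protein-coding genes. The count of a member with such a transcript therefore adds reads of mature mRNA and of annotated retained introns, in shares that these counts do not give. RPS15A and RPL12 had no such transcript. Their exons still summed to 6679 and 2453 bases, beside canonical transcripts of 2203 and 634. Small nucleolar RNA genes lay within the span of 28 members (34.6%) and of 1.28% of protein-coding genes. A named pseudogene in the table belonged to 77 members, with a median of 13 and up to 133 (RPL21). A median of 14.4% (range 1.63% to 42.7%) of a member's 31-base exonic sequences occurred elsewhere on the main chromosomes. Reads that fit several places, and their handling in counting, make the members' counts uncertain to that extent.

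The RefSeq promoter table (GRCh38.p14) held 64 of the 81 members. In the window from 10 bases before to 20 bases after the annotated start, a run of 8 or more C or T stood at 53 of these 64 (82.8%) and at 15.4% of 27305 genes. CCGGAAG, on either strand of 250 bases before to 50 after the start, was held by 35.9% of members and 12.2% of genes. TCTCGCG was held by 16 of the 64 members and 4.17% of genes, AAGATGG by 12.5% and 7.11%, and TATAAA by 9.38% and 14.0%. CCGGAAG and AAGATGG can share 3 letters. Such matches describe letters and are not shown to be sites in these cells. Start windows are printed, 5′ to 3′ with the longest run of C and T in capitals, for 3 members among the highest estimates in overexpression (RPS7, RPLP2 and RPS28) and for 3 that were far apart between the control groups (RPL27, RPL26 and RPS27). The copy RPS27L is set beside RPS27. They lie at chr2:3575250-3575279 (RPS7, plus strand), chr11:809957-809986 (RPLP2, plus), chr19:8321486-8321515 (RPS28, plus), chr17:42998409-42998438 (RPL27, plus), chr17:8383174-8383203 (RPL26, minus), chr1:153990752-153990781 (RPS27, plus) and chr15:63157458-63157487 (RPS27L, minus).
RPS7: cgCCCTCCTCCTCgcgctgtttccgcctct
RPLP2: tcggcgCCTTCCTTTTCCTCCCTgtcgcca
RPS28: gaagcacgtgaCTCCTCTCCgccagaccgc
RPL27: gtgaaaggttagcggaagtgTCCTTCTTTC
RPL26: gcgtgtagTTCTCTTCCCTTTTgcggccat
RPS27: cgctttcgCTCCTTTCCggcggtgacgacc
RPS27L: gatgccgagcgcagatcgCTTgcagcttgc
The longest runs were 11, 17, 9, 10, 14 and 9 bases in the first 6 and 3 bases in RPS27L, which was 1 of 11 matched members without a run of 8.

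Summed over the 81 genes, members took 2.33% and 2.30% of all counts in the Parental libraries, a mean of 2.31% ± 0.0214 (SD, n = 2). They took 3.09% and 3.24% in ZMYND8 overexpression, a mean of 3.17% ± 0.107. Their share was 3.27% and 3.08% in KD control (3.18% ± 0.132) and 3.32% and 3.49% in knockdown (3.41% ± 0.118). The Parental libraries thus lay below the other 6. These shares are of raw counts and are not scaled for the make-up of the libraries. With library totals alone, the median log2 fold change in overexpression was 0.29 over all 20835 genes tested and 0.44 over members. Much of the step from Parental to overexpression was thus shared by the median gene. Both knockdown libraries lay above both KD control libraries, by less than the distance between Parental and any other group. Pseudogenes named after the members took a further 0.385% ± 0.0079 in Parental, 0.516% ± 0.0107 in overexpression, 0.485% ± 0.0137 in KD control and 0.522% ± 0.0286 in knockdown. No test was made on these sums, since 2 against 2 libraries cannot pass a permutation test at 0.05.

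**Figure D1:**
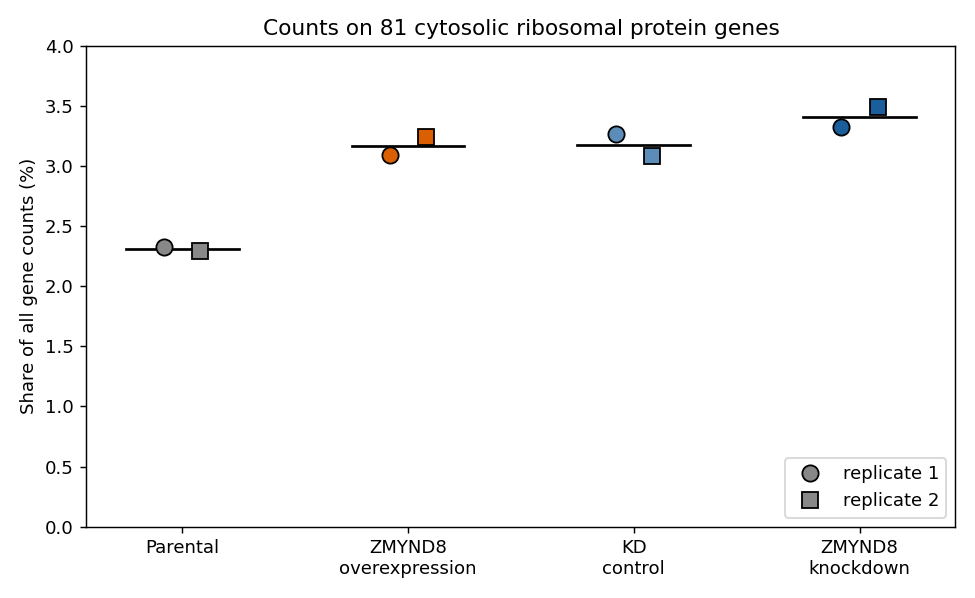
Share of all gene counts, in percent on an axis from 0, that fell on the 81 cytosolic ribosomal protein genes in each library, with circles for replicate 1, squares for replicate 2 and a line at the group mean. Parental libraries sit at 2.30% and 2.33%, and the other 6 between 3.08% and 3.49%.

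Fold changes were fitted with edgeR's quasi-likelihood test across all genes, after scaling by the trimmed mean of M-values (TMM), and a call is an adjusted p below 0.05. In ZMYND8 overexpression against parental, which asks what added ZMYND8 does to ATRA-treated cells, 77 members had enough counts to be tested (RPS18, RPL3L and RPL10L were among those that did not). Of these 47 rose (61.0%) and 1 fell, while 31.7% of the 20835 genes tested were called higher and 29.1% lower. The members' median log2 fold change was 0.19, beside 0.03 for all genes and -0.01 for protein-coding genes, and the single estimates ran from -1.34 to 0.59. By subunit, 20 of 29 small and 27 of 46 large subunit members rose, with medians of 0.22 and 0.17. Of the 28 members that hold a small nucleolar RNA gene 22 rose, and of the 49 tested members without one 25 rose. Leaving out 1 library gave 36 to 50 members higher and 2 lower, or 6 lower without Parental replicate 2. With library totals in place of TMM the median of all genes moved by 0.25 to 0.29 and that of the members to 0.44. Scaling shifts all genes of a library alike, so the distance between the medians could hardly change and was 0.15 under either scaling. With the trend of gene span taken out it was 0.0990. That distance was 0.04 with DESeq2 or with no filter on low counts, which bring more low genes into the median of all genes.

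The small subunit protein RPS7, needed to process the precursor of 18S ribosomal RNA, had the highest estimate. It stood at 318 and 331 normalized CPM (TMM over all 8 libraries) in Parental and at 469 and 498 in overexpression, a log2 fold change of 0.59 (SE 0.052, adjusted p = 3.47e-06). It was 345 and 327 in KD control and 348 and 398 in knockdown. Both overexpression libraries were thus above the other 6 for RPS7, while the Parental and KD control values overlapped. RPS15A, another small subunit protein, was at 23.0 and 22.6 in Parental and 32.0 and 33.1 in overexpression (log2 0.52, SE 0.061, adjusted p = 3.08e-05). The overexpression libraries of RPS15A lay above Parental and far below the 4 libraries of the knockdown experiment, which were at 212 to 252. RPS28, a small subunit protein at the mRNA exit, was at 28.7 and 28.1 against 39.8 and 38.4 (log2 0.47, SE 0.057, adjusted p = 3.93e-05). About 20.6% of its exonic bases overlap genes on the other strand, and whether counting used strand is not stated. RPL37, of the large subunit, was at 90.4 and 85.0 against 115 and 124 (log2 0.46, SE 0.055, adjusted p = 3.88e-05). RPL22, a large subunit protein that binds RNA and restrains its own relative RPL22L1, was at 61.3 and 59.4 against 76.6 and 82.9 (log2 0.41, SE 0.055, adjusted p = 8.13e-05).

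The ribosomal stalk, which brings the elongation factors to the ribosome, was uneven. RPLP2 rose, from 275 and 247 to 365 and 367 (log2 0.50, SE 0.056, adjusted p = 2.32e-05). RPLP1, its partner in the stalk dimers, rose from 507 and 473 to 556 and 598 (log2 0.24, SE 0.055, adjusted p = 0.00297). The stalk base RPLP0, often used as a reference gene in qPCR, was at 1399 and 1424 in Parental and 1405 and 1472 in overexpression (log2 0.04, SE 0.049, adjusted p = 0.55). RPSA, the small subunit protein also known as the laminin receptor precursor, was at 676 and 713 against 722 and 745 (log2 0.09, SE 0.051, adjusted p = 0.16). Within the stalk, then, RPLP1 and RPLP2 passed the test and RPLP0 did not.

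RPS27L, a copy of RPS27 that p53 is known to induce, was the 1 member called lower, and the 1 past a log2 fold change of 1 with a mean normalized count above 20, a rule under which 6.85% of all genes were lower. It had 108 and 96.4 normalized CPM in Parental and 41.4 and 38.7 in overexpression, 2.53-fold lower (log2 -1.34, SE 0.065, adjusted p = 2.97e-08). KD control libraries were at 130 and 114 and knockdown libraries at 120 and 136, so both overexpression libraries lay below the other 6. Its parent gene RPS27 was at 17.4 and 13.4 in Parental and 12.9 and 14.3 in overexpression (log2 -0.17, SE 0.119, adjusted p = 0.25). No other member near the lower end passed the test. RPS29, a small zinc-binding protein, was at 182 and 144 in Parental but at 75.2 and 164 in overexpression, the widest split between replicates of any member (1.12 on the log2 scale). Its log2 fold change of -0.44 (SE 0.261, adjusted p = 0.167) became 0.02 without overexpression replicate 1 and -1.10 without overexpression replicate 2, where it passed the test and made 2 members lower past the fold. Estimates for RPL17 (-0.24), RPL11 (-0.17) and RPL39 (-0.14) did not pass either, with adjusted p-values of 0.0762, 0.125 and 0.0559. RPL17 shares 32.7% of its exonic bases with genes on the same strand, a readthrough with its neighbour among them. For RPS29 the counted exons sum to 9840 bases beside a canonical transcript of 295, and its span holds RN7SL1 and a Y RNA gene. RPS29 shares 4.10% of its exonic bases with genes on the same strand and 4.11% with genes on the other. What part of the RPS29 counts came from other genes was not tested.

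**Figure D2:**
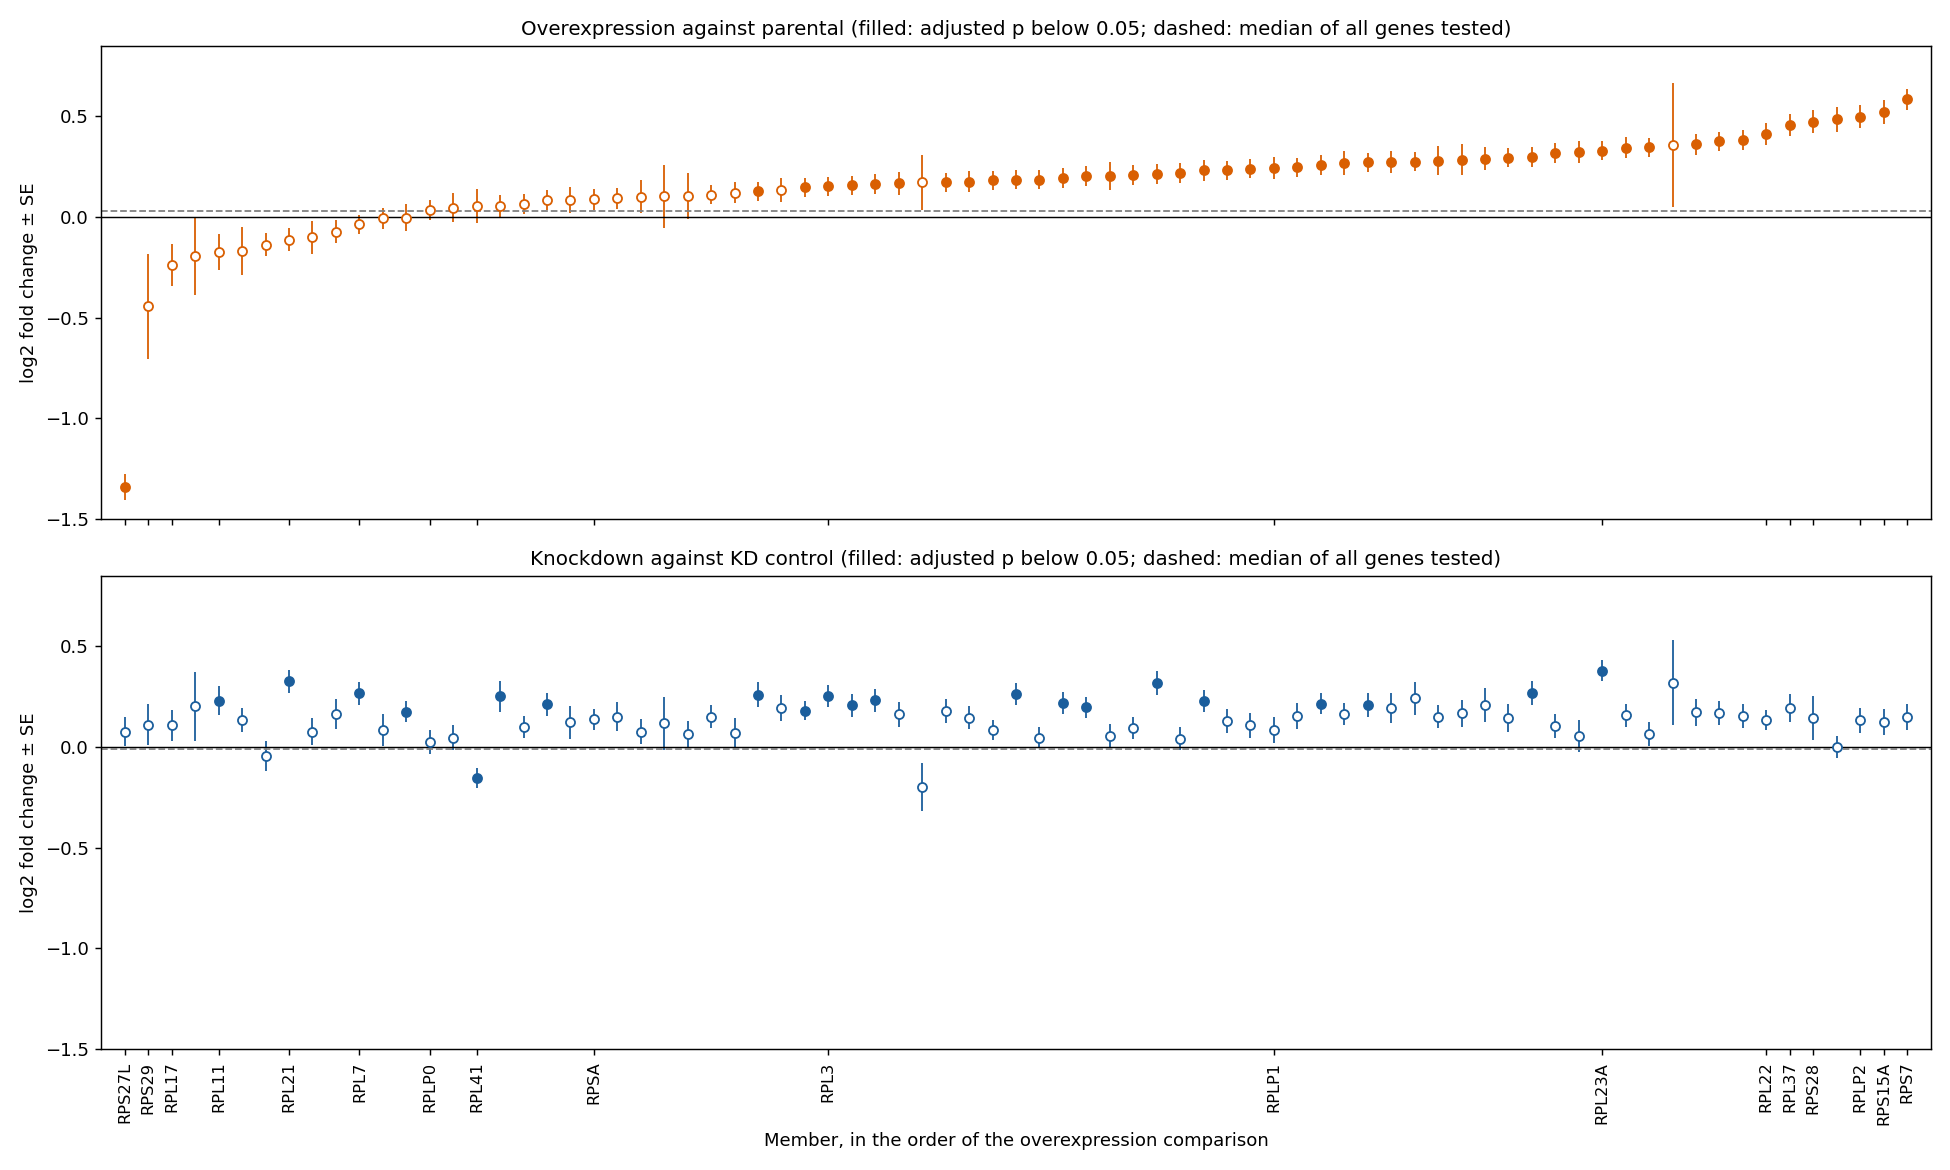
The log2 fold change with its standard error (SE) of the 77 members tested in overexpression, overexpression against parental in the upper panel and knockdown against KD control in the lower one, with members in the order of the upper panel and 18 of them labelled. Filled points passed an adjusted p below 0.05 and the dashed line is the median of all genes tested. In overexpression 47 members are higher and RPS27L alone is lower, and in knockdown 20 are higher and RPL41 is lower.

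Knockdown against KD control asks the converse, what ATRA-treated cells show with less ZMYND8, whose own counts fell to 0.522-fold (log2 -0.94, adjusted p = 2.2e-06). Here 20 of 78 members tested rose (25.6%) and 1 fell, while 13.4% of the 19789 genes tested were called higher and 10.8% lower. The median over members was 0.15 and over all genes -0.01, and 75 of the 78 estimates were above 0. Large subunit genes made up 16 of the 20 (of 46 tested) and small subunit genes 4 (of 30). No member reached a 2-fold change, with estimates from -0.20 to 0.38. The count depended on single libraries: without KD control replicate 2 it was 3, without KD control replicate 1 it was 24, and without knockdown replicates 1 and 2 it was 35 and 16. Under library totals 12 members rose, and with DESeq2 30.

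RPL23A, a large subunit protein beside the exit of the nascent chain, had the highest estimate of the members tested in knockdown. It was at 219.9 and 207 normalized CPM in KD control and at 280.2 and 274 in knockdown (log2 0.38, SE 0.052, adjusted p = 0.000449). It had risen in overexpression too, from 122 and 119 to 148 and 153 (log2 0.33, SE 0.048, adjusted p = 0.000156). RPL21 went from 69.8 and 66.5 to 81.03 and 89.5 (log2 0.33, SE 0.058, adjusted p = 0.00234), while in the other experiment it was at 51.3 and 47.3 in Parental and 45.9 and 44.6 in overexpression. RPL5, which with RPL11 and the 5S ribosomal RNA forms a particle that can bind MDM2, went from 506 and 472 to 584 and 634 (log2 0.32, SE 0.059, adjusted p = 0.0028). These 3 were called under each of the 16 alternatives tried. RPS3, a small subunit protein at the mRNA entry, went from 671 and 638 to 751 and 823 (log2 0.27, SE 0.059, adjusted p = 0.00729). RPL7 went from 206 and 201 to 232 and 257 (log2 0.27, SE 0.057, adjusted p = 0.0063), and RPS4X, encoded on the X chromosome, from 1098 and 1084 to 1260 and 1354 (log2 0.26, SE 0.055, adjusted p = 0.00602). For each of these 6 genes both knockdown libraries lay above both KD control libraries. They were picked for the highest estimates in these same libraries, so that separation adds no support to the estimates.

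RPL41, the shortest protein of the ribosome, was the 1 member called lower, at 485 and 471 in KD control and 425 and 432 in knockdown (log2 -0.15, SE 0.05, adjusted p = 0.0454). That call was lost when any library was left out (adjusted p from 0.111 to 0.176). RPL39, another very small protein of the exit tunnel, was at 244 and 206 against 209.8 and 227 (log2 -0.04, adjusted p = 0.721), and RPLP0 had a log2 estimate of 0.02. RPL39L, the copy of RPL39, was at 6.13 and 6.04 against 5.12 and 5.47 (log2 -0.20, SE 0.12, adjusted p = 0.272). RPLP1, RPLP2 and RPSA, at 0.08, 0.13 and 0.14, did not pass in knockdown (adjusted p = 0.382, 0.147 and 0.0884).

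The 2 experiments have separate controls, and each gives its own values for 77 members. Estimates were above 0 in both for 62 of them, 14 were called higher in both, 33 in overexpression and not in knockdown, 6 in knockdown and not in overexpression, and 24 in neither. The same joint counts were not made over all genes. Of all genes tested in each comparison, 31.7% were called higher in overexpression and 13.4% in knockdown. Whether the overlap is particular to the members was not tested. Whether the effects differ was tested as the overexpression effect minus the knockdown effect over all 8 libraries. Of 78 members 9 had a higher effect in overexpression (11.5%) and 5 a lower one (6.41%), beside 24.6% and 24.4% of the 22619 genes tested. The median difference was 0.02 over members and 0.06 over all genes. On the higher side were RPS7 (0.43, SE 0.091, adjusted p = 0.00116), RPS15A (0.39, SE 0.092, adjusted p = 0.00263) and RPLP2 (0.36, adjusted p = 0.00447). Each of them was called higher in overexpression and not in knockdown. On the lower side were RPS27L (-1.42, SE 0.111, adjusted p = 5.75e-08), RPL21 (-0.45, SE 0.087, adjusted p = 0.000623), RPL11 (-0.41), RPL17 (-0.35) and RPL7 (-0.31, but 0.0074 under library totals). RPL21, RPL11 and RPL7 were 3 of the 6 members called in knockdown and not in overexpression. For RPL38, RPL10A and RPL12, the other 3 of those 6, the differences of -0.20, -0.13 and -0.19 did not pass (adjusted p = 0.142, 0.187 and 0.114). RPS29 had one of the 4 largest differences in size (-0.56, SE 0.336, adjusted p = 0.188) and rests on the split replicates given above. The counts depend on scaling, since library totals, which move the median of all genes by 0.32, gave 58 members higher and 1 lower. They depend on single libraries too, with 16 members higher without KD control replicate 2 and 8 lower without knockdown replicate 1.

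**Figure D3:**
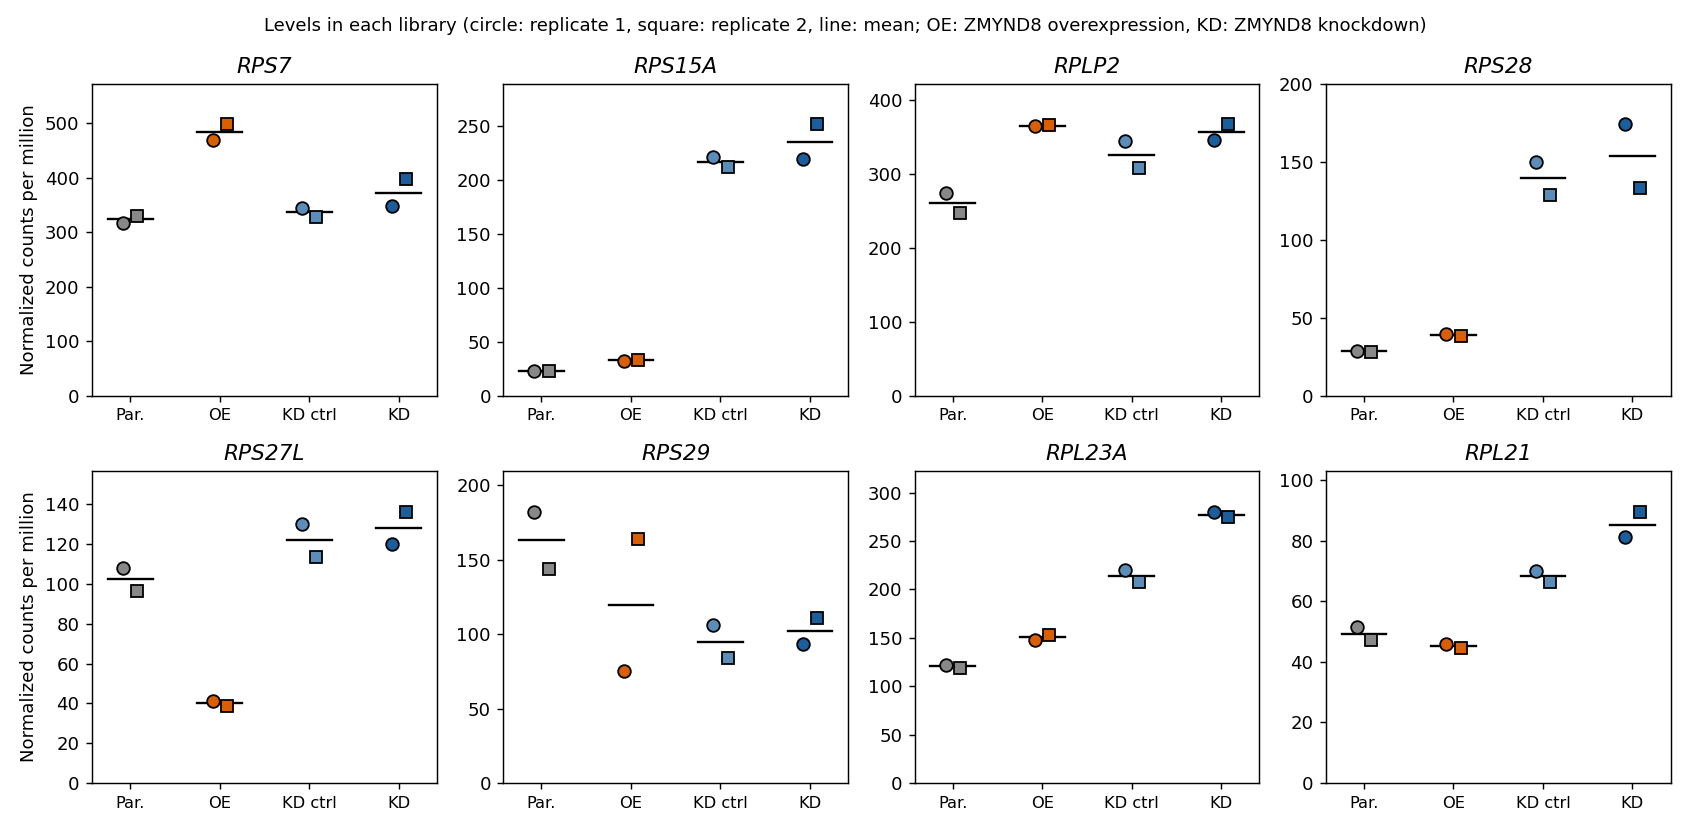
Normalized CPM, on axes from 0, of 8 members in each library of Parental (Par.), ZMYND8 overexpression (OE), KD control (KD ctrl) and ZMYND8 knockdown (KD), with circles for replicate 1, squares for replicate 2 and a line at the mean. RPS7 is highest in the overexpression libraries and RPS27L lowest there, at 41.4 and 38.7, RPS29 splits between the overexpression replicates, and RPS15A and RPS28 are several times higher in the knockdown experiment than in the overexpression experiment.

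The control groups themselves were compared because the members' levels lay far apart between experiments. KD control and parental differ in experiment and in the Dox of their labels, and whether KD control carried a vector is not stated. These differences cannot be told apart, and both groups also serve as controls above. Of 78 members 54 were higher in KD control (69.2%) and 11 lower (14.1%), while 33.6% of the 20385 genes tested were called higher and 36.2% lower. The median over members was 0.53 and over all genes 0.00. Past a log2 fold change of 1 and a mean normalized count above 20 there were 26 members, all higher in KD control, beside 10.8% of all genes. These 26 ran from RPL8 (1.02) to RPL27 (3.33, SE 0.081, adjusted p = 1.18e-10), a large subunit protein at 36.9 and 31.3 normalized CPM in Parental and 359 and 323 in KD control. RPS15A (3.26), RPL26 (2.83), RPS27 (2.45), RPL36 (2.31) and RPS28 (2.31) followed among members with a mean count above 100. RPL26, a large subunit protein at the exit tunnel, was at 6.36 and 6.11 against 46.0 and 42.4. When counts on the named pseudogenes were added to their parent genes, the log2 estimates of RPL26, RPS28 and RPL39 went from 2.83, 2.31 and 1.45 to 1.34, 0.78 and 0.63, and those of RPS27 and RPL36A from 2.45 and 0.60 to 3.56 and 2.09. The number of members past the fold and mean rule stayed within 1 of the 26, and RPS28 and RPL39 were no longer past a log2 fold change of 1. Large subunit members had a median of 0.84, with 36 of 46 higher and 2 lower, and small subunit members one of 0.24, with 17 of 30 higher and 9 lower. Among the lowest estimates were those of RPSA (-0.92, from 676 and 713 to 378 and 352), RPS29 (-0.77), RPS21 (-0.64), RPLP0 (-0.57) and RPS19 (-0.47), each with an adjusted p below the threshold. For RPL27 the overexpression libraries were at 38.3 and 34.2 and the knockdown libraries at 344 and 373. Across the 78 members tested, the log2 fold change between control groups had a Spearman correlation of 0.02 with transcript length, 0.00 with gene span, -0.10 with exon GC content and -0.22 with the share of 31-base sequences found elsewhere (genes of the same libraries, not independent replicates). In the same order these were 0.21, -0.02, 0.33 and -0.27 for the overexpression effect over 77 members, and 0.30, 0.11, 0.07 and 0.03 for the knockdown effect over 78.

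Per kilobase of summed exon length the order of the members was nearly the same within an experiment and less so between them. Over 78 members the Spearman correlation of mean levels was 0.995 between Parental and overexpression, 0.996 between KD control and knockdown, and 0.860 between Parental and KD control. In Parental the highest were RPS12 (385 normalized CPM per kb), RPLP0 (354) and RPS4X (342), and among the lowest were RPS9 (0.292) and RPL36A (0.733). The median member was at 69.2 per kb in Parental, 77.1 in overexpression, 116 in KD control and 130.1 in knockdown. Between replicates the median member differed by 0.055 to 0.115 on the log2 scale.

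**Figure D4:**
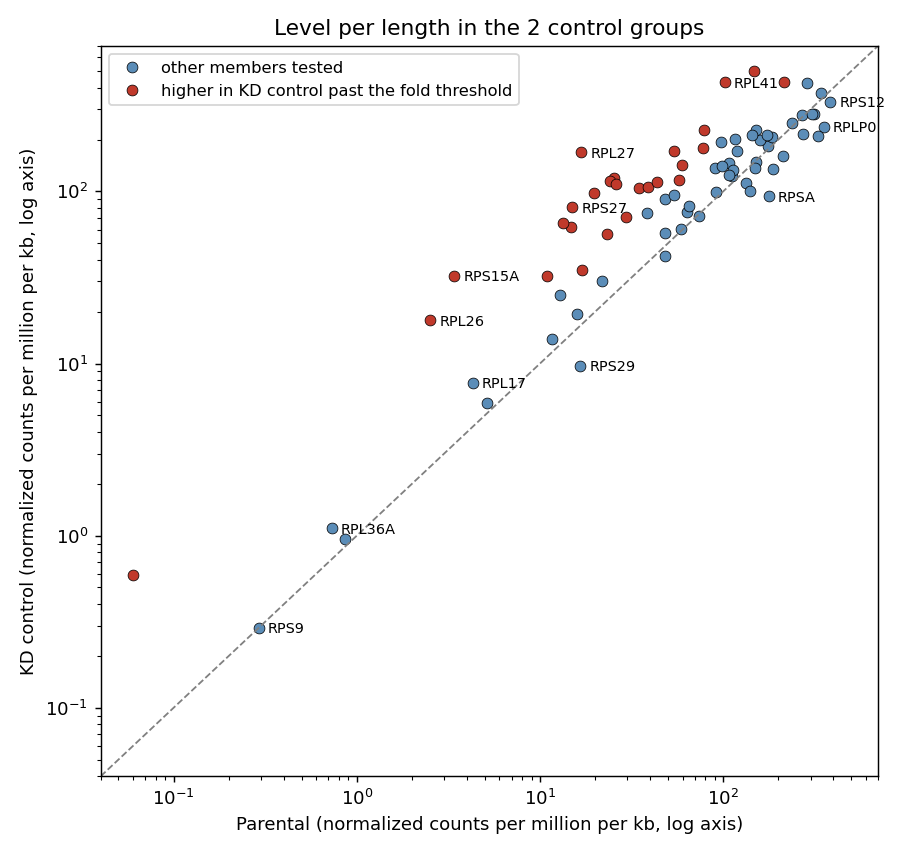
Mean level per kilobase of summed exon length, in normalized CPM per kb on log axes, of the 78 members tested, Parental against KD control, with a dashed line of equal levels and in red the 26 members higher in KD control past the fold threshold. RPL27, RPS15A and RPL26 lie far above the line, and RPSA and RPS29 below it.

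A few members had next to no counts. RPS18 and RPS9, both of the small subunit and needed by every ribosome, had 0 to 3 and 36 to 100 counts per library, and 100% and 97.7% of their 31-base sequences also occur on alternate contigs of the assembly. Both were kept among the 81. RPS10 had 74 to 135 counts and shares 40.3% of its exonic bases with a same-strand readthrough gene. RPL10L, an intronless copy of RPL10 known from testis, had a count of 0 in each library, while RPL10 was at 483 and 504 normalized CPM in Parental and 687 and 661 in KD control. RPL3L, the muscle copy of RPL3, had 0 and 1 counts in Parental, 6 and 8 in overexpression and 0 in the other 4 libraries, and was not tested. RPL3 rose in both overexpression (log2 0.15, SE 0.048, adjusted p = 0.0178) and knockdown (log2 0.25, SE 0.054, adjusted p = 0.00616). RPL39L was at 4.83 and 5.73 in Parental and 6.28 and 5.54 in overexpression (log2 0.17, adjusted p = 0.306).

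Related genes outside the rule did not all move as the members did. Their counts stand beside 31.7% of all genes called higher and 29.1% lower in overexpression, and 13.4% and 10.8% in knockdown. Among ribosomal proteins and copies with other symbols, RACK1 (log2 0.23, adjusted p = 0.00202) and FAU (0.20, adjusted p = 0.00668) rose in overexpression. RPL22L1 (-0.86, adjusted p = 2.16e-06), RPL36AL (-0.37, adjusted p = 0.00443) and RPL26L1 (-0.29, adjusted p = 0.0125) fell, all of them copies of members. RPL22L1 had 1981 and 2225 counts in Parental and 1398 and 1016 in overexpression, where RPL22 rose. In knockdown RPL22L1 rose, from 2682 and 2835 counts in KD control to 3498 and 4001 (log2 0.49, adjusted p = 0.000417), and RPL22 did not pass (log2 0.14, adjusted p = 0.0695). RACK1 was called higher in knockdown as well (0.22, adjusted p = 0.0163). Translation factors and other known TOP mRNAs had a median of 0.08 in overexpression, with 7 of 17 higher (41.2%) and 1 lower, and of 0.21 in knockdown, with 8 of 17 higher (47.1%) and none lower. The elongation factor EEF2 rose in both (0.32 and 0.26), as did the poly(A)-binding protein PABPC1 (0.18 and 0.54), and the 1 lower in overexpression was VIM (-0.91), which is also among the mesenchymal markers. Genes of ribosome assembly and RNA polymerase I had a median of -0.20 in overexpression, with 4 of 26 higher (15.4%) and 14 lower (53.8%), among the latter the nucleolar proteins NPM1 (-0.30, adjusted p = 0.000575) and NCL (-0.25, adjusted p = 0.00308), and 0.14 in knockdown, with 8 higher (30.8%) and none lower. Their difference of effects had a median of -0.32, with 14 of 26 called lower and 1 higher, beside 24.4% and 24.6% of all genes. UBTF, the RNA polymerase I factor, was among the 4 that rose in overexpression (0.30, adjusted p = 0.000647). Mitochondrial ribosomal proteins, which serve the separate ribosome of that organelle, had medians of -0.05 in overexpression (10 of 75 higher, or 13.3%, and 19 lower, or 25.3%) and 0.08 in knockdown (11 higher, or 14.7%, and 2 lower), so no share was far above that of all genes. Of 14 regulators of ribosomal protein synthesis, 2 rose and 5 fell in overexpression (14.3% and 35.7%), and of 13 tested in knockdown 8 rose (61.5%) and 1 fell. That list mixes genes that promote and genes that restrain this synthesis, so its counts give no single direction. MTOR rose in both comparisons (0.30 and 0.33). In raw counts EIF4EBP2, of the same list, had 16289 and 17456 in KD control and 25410 and 25470 in knockdown. EIF4EBP1 had 2262 and 2008 against 3186 and 2805. MYC, which drives ribosome genes, was at log2 -0.20 in overexpression (adjusted p = 0.298) and rose in knockdown (0.75, adjusted p = 0.000234), and MYCN had 5 and 1 counts in Parental, 93 and 58 in overexpression and 0 to 4 in the other libraries. Of 1587 pseudogenes named after members, 161 were tested in overexpression, with a median of 0.14, 32 higher (19.9%) and 13 lower, and 196 in knockdown, with a median of 0.14, 17 higher (8.67%) and 3 lower.

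**Figure D5:**
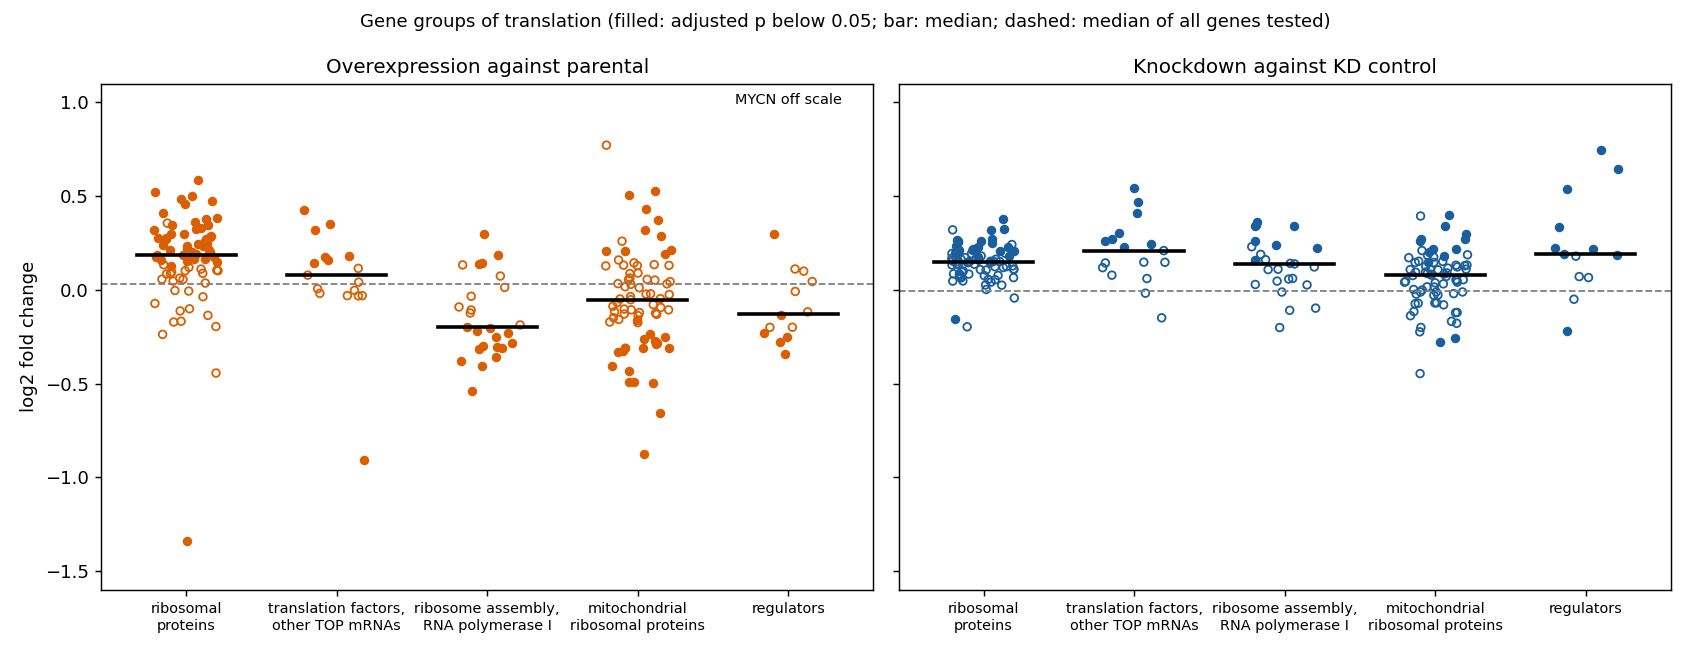
The log2 fold change of each gene tested in 5 groups of translation genes, overexpression against parental at the left and knockdown against KD control at the right, filled where the adjusted p was below 0.05, with a bar at each group's median and a dashed line at the median of all genes tested (MYCN lies off the scale at the left). Ribosomal proteins have a median of 0.19 in overexpression while ribosome assembly genes have one of -0.20, and in knockdown the medians of all 5 groups lie between 0.08 and 0.21.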

How the data were processed

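RNA-seq was made of 8 libraries of ATRA-treated SK-N-SH cells, 2 in each of 4 groups, grouped by the labels. The authors deposited raw counts per gene. Per the study's methods, reads of Phred score under 25 were removed after Trim Galore, Hisat2 placed the read pairs on GRCh38 and featureCounts gave gene counts from GENCODE (release 28 named), and the submitters' processing notes name hg38, HISAT2 and DESeq2. Strand and multi-mapping settings are not given in the sources used here.

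Of 60662 lines, 3 that belong to 1 gene split over lines were left out. Symbols came from GENCODE release 44 (60418 of 60659 IDs matched), and gene lengths and exons from the deposited table. Counts were tested with edgeR 4.0.16 in R 4.3.3 (filterByExpr, TMM, quasi-likelihood F-test, two-sided, Benjamini-Hochberg over all genes tested), within each experiment and, for the difference of effects, over all 8 libraries. A call is an adjusted p below 0.05. A stricter fold rule also asks for 2-fold (1 on the log2 scale) and for normalized counts that average over 20. It was adapted from the study's cutoffs, with an adjusted p in place of a p and the fold cutoff of the methods read as a log2 value, which is an interpretation. Levels are CPM after TMM over all 8 libraries. The fits were tested on simulated data. Replicates differed by more than sampling noise (chi-square per degree of freedom 5.52 to 7.97). Alternatives were other scalings, DESeq2 1.42.0, no filter, a replicate block, trends of gene length, span and GC content taken out by loess, pseudogene counts added, and each library left out.

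The members, gene lists, motifs and tests were chosen with earlier results of these data known. Members named were those with the 6 highest and 6 lowest estimates per ZMYND8 comparison at a mean normalized count above 100, those past the fold rule, the 4 largest differences of effects, the stalk, RPSA, the copies with their parent genes, and the 3 highest and 3 lowest levels per length in Parental. Others named with values (RPL22, RPL12, RPL38, RPL10A, RPS21, RPS19, RPS18, RPS10 and genes of the lists) were chosen after their values were seen. Some genes that the rule names are not reported here.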

Additional observations from a re-analysis of the deposited data

Results flagged for a closer look

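For 14 members the overexpression effect and the knockdown effect differed in edgeR's test of the difference over all 8 libraries (overexpression effect minus knockdown effect, log2, adjusted p below 0.05). The difference was below 0 for RPS27L (-1.42), RPL21 (-0.45), RPL11 (-0.41), RPL17 (-0.35) and RPL7 (-0.31). Among those above 0 were RPS7 (0.43), RPS15A (0.39), RPLP2 (0.36), RPS15 (0.28), RPL22 (0.27) and RPL37 (0.26). RPS27L, RPS7 and RPS15A kept their call under each of the 19 alternatives, and the others given here lost it under at least 1. RPL21, RPL7 and RPL11 had adjusted p-values of 0.00234, 0.0063 and 0.0396 in knockdown, where each was higher, and of 0.114, 0.516 and 0.125 in overexpression. RPL17 was called in neither experiment alone (adjusted p = 0.0762 and 0.344), and shares exonic bases with a readthrough gene. The share of all genes called in this test was 24.6% higher and 24.4% lower, against 9 and 5 of 78 members.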

How the results depend on the processing

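Counts of members were recomputed under each alternative. In overexpression 36 to 50 members were higher, 2 to 6 lower and 1 to 2 lower past the fold when 1 library was left out, with a median of 0.17 to 0.21. The lower count was 2 with RLE scaling, with all 8 libraries in 1 fit, with the replicate block and with pseudogene counts added, 4 with no filter, 5 with the length trend taken out, 6 with length and GC trends or with the block and length trend, and 8 with the span trend (36 higher). The median was 0.26 under upper quartile scaling and 0.44 under library totals. In knockdown 3 to 35 were higher and 0 lower without 1 library (median 0.10 to 0.21). The higher count was 12 under library totals and with no filter, and 33 with the span trend taken out. RPL41's lower call was gone (0 members) with no filter, with all 8 libraries, with length, length and GC, or span trends taken out, and with pseudogene counts added. For the difference of effects, leaving out 1 library gave 6 to 16 higher and 4 to 8 lower (median -0.045 to 0.0675). Higher and lower counts were 58 and 1 under library totals (median 0.34), 5 and 11 with DESeq2, 5 and 13 with no filter (median -0.0575), 5 and 9 with the length trend and 5 and 18 with the span trend (median -0.069). The lower count was 8 with RLE (median -0.039), 14 with length and GC trends and 9 with the block and length trend, and the higher count was 19 under upper quartile (median 0.094). Between control groups 51 to 57 were higher, 9 to 14 lower and 25 to 28 higher past the fold without 1 library (median 0.46 to 0.58), and upper quartile gave a median of 0.59. Library totals turned the sign of a value called there or in the main result for RPL12 (0.25), RPL21 (0.14), RPL7 (0.22) and RPS12 (0.18) in overexpression, and in the difference for RPL23A (0.26), RPL24 (0.27), RPL3 (0.21), RPL37A (0.30), RPL5 (0.21), RPL6 (0.32), RPL7 (0.0074), RPS24 (0.31), RPS4X (0.23) and RPSA (0.26). Length and GC trends did so for RPL8 in the difference (-0.22) and RPL3 between control groups (0.20). The cause was not tested. Member shares moved to 2.42%, 3.37%, 3.47% and 3.75% of protein-coding counts without mitochondrial genes and ZMYND8, and to 2.70%, 3.69%, 3.66% and 3.93% with pseudogenes added (Parental, overexpression, KD control, knockdown), and were 2.30% to 2.33%, 3.09% to 3.24%, 3.08% to 3.27% and 3.32% to 3.49% with 1 library. Of 2948 single values of 46 named members, 2674 kept direction and side of the threshold, 86 lost a call, 172 gained one and 16 turned.

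Replicate numbers are shared between groups, but 2 pairs cannot show a pairing, and deviations of same-numbered libraries were hardly correlated (r = 0.0097 in overexpression and -0.0111 in knockdown over 22619 genes). Over the 78 members alone r was -0.371 in overexpression, -0.0665 in knockdown and 0.346 between control groups. With the replicate block 33 members were higher in knockdown, and 40 with the block and the length trend. All 81 members had at most 50% of their 31-base sequences elsewhere on the chromosomes (alternate contigs not counted), so leaving out those above that changed nothing. RPS18, RPL10L and RPL3L had too few counts to be tested in either experiment at these depths, and for RPS18 depth cannot be told apart from the copies of its sequence on alternate contigs.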
